A study of Mus musculus with 5 samples.

Results

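Iron handling was followed through 10 genes in the embryonic mouse lung: the iron exporter Slc40a1, the haem oxygenase Hmox1, the ferritin subunits Fth1 and Ftl1, the transferrin receptor Tfrc, the metal transporters Slc11a1 and Slc11a2, the haemoglobin receptor Cd163, transferrin (Trf) and the biliverdin reductase Blvrb. They were taken by gene symbol, as 10 of the 32285 genes in the deposited count tables. Single-cell 3′ RNA libraries had been made from the whole lung of each of 5 E18.5 embryos after dissociation and red-cell lysis. The Het libraries (Het1 and Het2) were labelled Zswim8+/-, and the 3 KO libraries (KO1, KO2 and KO3) Zswim8-/-, so that every embryo carried at least 1 mutant allele and no wild-type lung was compared. Zswim8 is a receptor subunit of a ubiquitin ligase through which some microRNAs are degraded. The strain and the structure of the allele are not given in the sources used here. The set was selected on the whole-library level of Slc40a1, known to be higher in KO when the genes were chosen, so its Het and KO values are a description, without a test. Values are listed in the order Het1, Het2 and KO1, KO2, KO3.

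Macrophages take up ageing red cells and haemoglobin, the latter through Cd163. Haem is opened by haem oxygenase, whose product biliverdin is then reduced, and the freed iron is stored in ferritin shells built of heavy (Fth1) and light (Ftl1) subunits or released through ferroportin, the product of Slc40a1, the only known cellular iron exporter. Iron in the circulation travels on transferrin and enters cells by Tfrc, most of all in red cell precursors, and then leaves the endosome through Slc11a2 (DMT1). Slc11a1 (NRAMP1) moves metal ions out of the phagosome of macrophages and neutrophils. Several of these transcripts carry an iron-responsive element, a short hairpin bound by the iron regulatory proteins when iron is scarce. In a 5′ UTR this binding blocks translation, and in the 3′ UTR of Tfrc it protects the transcript from decay.

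Matches to the hairpin are shown because one in a 5′ UTR bears on translation, which RNA counts do not measure, and one in the 3′ UTR of Tfrc on transcript level, which they do. Annotated UTRs (GENCODE M21, GRCm38) were searched on the transcribed strand for a C, 5 bases, the loop CAGTGN and 5 bases that pair with the first 5, G with T allowed. The loop is in capitals and 27 bases are printed for each match.
Slc40a1 5′ UTR, chr1:45925466-45925492, minus strand: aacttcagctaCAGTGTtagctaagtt
Fth1 5′ UTR, chr19:9982733-9982759, plus strand: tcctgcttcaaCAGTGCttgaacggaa
Ftl1 5′ UTR, chr7:45459780-45459806, minus strand: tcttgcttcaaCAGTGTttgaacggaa
Tfrc 3′ UTR, chr16:32631220-32631246, plus strand: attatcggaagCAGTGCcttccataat
Tfrc 3′ UTR, chr16:32631599-32631625, plus strand: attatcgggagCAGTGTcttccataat
Tfrc 3′ UTR, chr16:32631664-32631690, plus strand: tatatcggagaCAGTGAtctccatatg
Tfrc 3′ UTR, chr16:32631711-32631737, plus strand: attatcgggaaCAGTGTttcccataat
The exporter and both ferritin genes had 1 match each in the 5′ UTR, and Tfrc had 4 in the 3′ UTR. The other 6 genes had no match to these letters in their annotated UTRs. The search allowed no unpaired base within the 5 pairs. A gene without a match, such as Slc11a2, may therefore still carry an element of another form. The 10 genes were searched over all their coding transcripts. Among all genes, searched in the longest coding transcript only, 20 of 20250 had a match in the 5′ UTR (0.0988%) and 118 of 20896 in the 3′ UTR (0.565%).

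In the GRCm38 annotation Slc40a1 lies on chr1:45908068-45926523, Slc11a1 on chr1:74375195-74386062, Cd163 on chr6:124304656-124330527, Blvrb on chr7:27447978-27466144, Ftl1 on chr7:45457944-45459884, Hmox1 on chr8:75093621-75100589, Trf on chr9:103204001-103230444, Slc11a2 on chr15:100387898-100425072, Tfrc on chr16:32608920-32632794 and Fth1 on chr19:9980598-9985098, all as protein-coding genes.

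The libraries held 8722 to 13539 barcodes and 56608582 to 93708304 UMIs, of which 3051 to 4634 cells per library were kept, with median depths of 9857 to 12899 UMIs per kept cell. Any 2 libraries shared 17 to 44 barcode sequences. Barcodes of red cells (mostly haemoglobin UMIs and few genes) made up 21.4% to 48.7% of all barcodes and were set apart. Het1, Het2 and KO3 were male and KO1 and KO2 female by Y-linked and Xist UMIs, so sex and genotype were not balanced. The Zswim8 transcript did not mark the genotype: it stood at 37.1 and 39.2 CPM in Het and at 38.8, 38.5 and 40.6 CPM in KO, and where the deleted part lies relative to the counted 3′ end is not given. KO1 stood apart in several types, with 21.4% red-cell barcodes and 86 of the 113 erythroid-like cells.

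The 10 genes were followed over the cell types, which were rebuilt by clustering without the iron genes and named by their markers. Several of the genes shared their highest type. Levels are CPM, a gene's UMIs scaled to the UMIs summed over the cells of 1 type in 1 library. For types and clusters with 20 or more cells in every library, this sum was that of genes past the low-count filter, with TMM scaling. Smaller ones, erythroid-like cells among them, have plain CPM over all UMIs, as have the marker and red-cell sums. Levels are given as the mean ± SD over the 5 libraries and describe the types without a test. They were not compared between genes. Slc40a1 was highest in interstitial macrophage-like cells (414 ± 70.7 CPM), the lung macrophages outside the airspace marked by complement C1q genes. Neutrophil-like cells followed with a mean of 156 CPM (135 to 170 CPM) and monocyte-like cells with 44.3 ± 39.1 CPM, and these ranges did not overlap. Alveolar macrophage-like cells held only 2.73 ± 0.856 CPM, within the range of the epithelial types. Hmox1 (783 ± 259 CPM), Cd163 (109 ± 58.6 CPM) and Ftl1 (8615 ± 1349 CPM) were also highest in the interstitial cells by their means. The range of Ftl1 overlapped that of alveolar macrophage-like cells (6131 ± 1555 CPM). Its alveolar level lay above the interstitial one in Het2, and below it in Het1 and the KO libraries.

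Fth1 was highest in alveolar macrophage-like cells (12792 ± 4644 CPM), with a range that overlapped interstitial macrophage-like cells (7475 ± 1502 CPM). Trf had its highest mean over the 5 libraries there, at 1304 ± 40.8 CPM, beside secretory-like (1201 ± 536 CPM) and ciliated-like (931 ± 258 CPM) airway cells, with overlapping ranges. That order turned with the genotype: in both Het libraries secretory-like cells (1696 and 1870 CPM) lay above alveolar macrophage-like cells (1329 and 1244 CPM), and in the KO libraries below them. Tfrc and Blvrb were highest in erythroid-like cells. Tfrc stood at 838 ± 407 CPM there, with no overlap with the next type, and at 75.2 ± 14.9 CPM in type 2 alveolar cells (AT2-like). Blvrb stood at 886 ± 178 CPM in erythroid-like cells and at 572 ± 17.1 CPM in interstitial macrophage-like cells. The erythroid-like values rest on 10 and 3 cells in Het and on 86, 7 and 7 cells in KO, so no comparison of genotypes was made there. Slc11a1 was highest in monocyte-like cells (168 ± 10.2 CPM), followed by interstitial macrophage-like (131 ± 21.9 CPM) and neutrophil-like cells (113 ± 13.6 CPM) with overlapping ranges, with means of 0.762 to 1.34 CPM in the 4 epithelial types. Slc11a2 was the one with the highest levels in epithelium, 54.0 ± 4.41 CPM in ciliated-like and 53.8 ± 13.6 CPM in type 1 alveolar cells (AT1-like). All 10 genes kept their highest type when sums were scaled by library size alone. Counted in UMIs per cell, 7 kept it, while Ftl1 moved to alveolar macrophage-like, Trf to ciliated-like and Blvrb to interstitial macrophage-like cells.

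**Figure D1:**
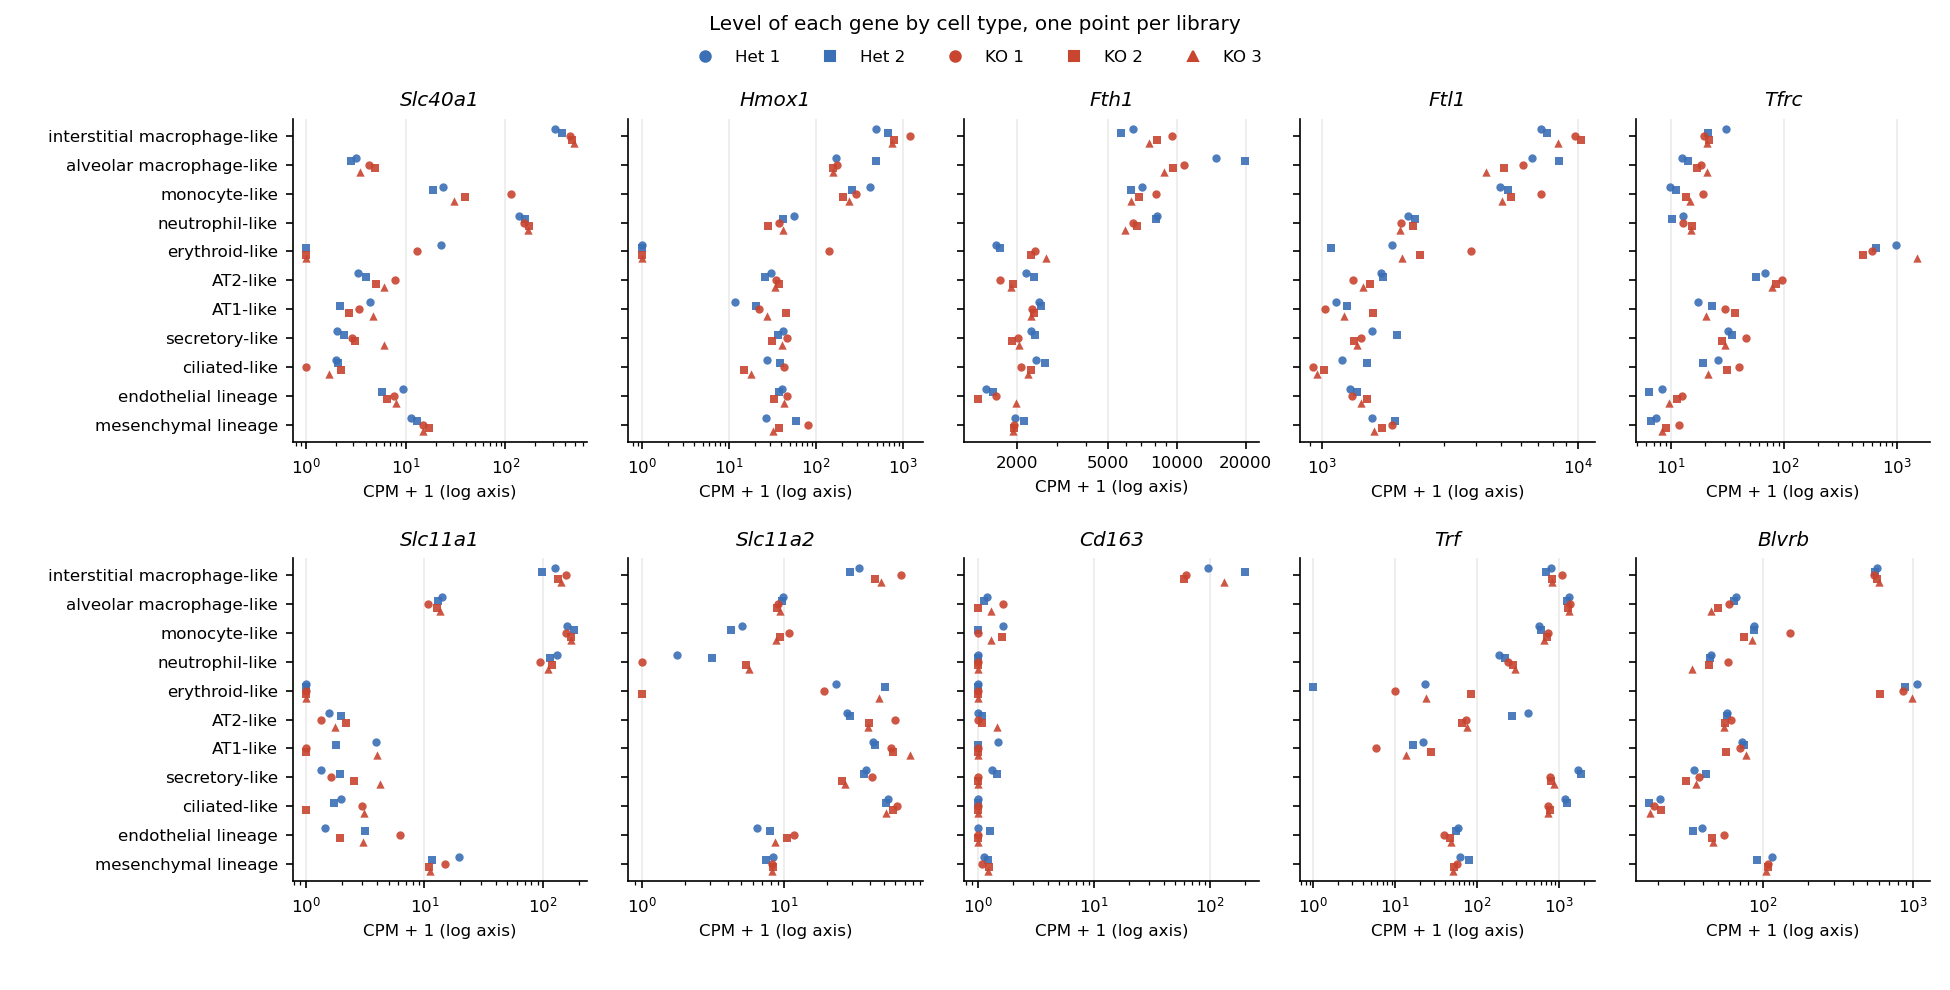
Level of each of the 10 genes (CPM, log axis) in macrophage, erythroid, epithelial and other types, 1 point per library. By their mean, Slc40a1, Hmox1 and Cd163 lie highest in interstitial macrophage-like cells, Fth1 in alveolar macrophage-like cells, and Tfrc and Blvrb in erythroid-like cells, while Trf lies highest in secretory-like cells in both Het libraries and in alveolar macrophage-like cells in the KO libraries.

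The exporter stood higher in the KO libraries, and most of its UMIs came from 1 cell type that was also more numerous there. Over all kept cells, Slc40a1 stood at 15.9 and 18.4 CPM in Het and at 43.1, 39.8 and 40.4 CPM in KO. The log2 difference was 1.26, in the level on which the set was selected. Every KO library lay above both Het libraries. Interstitial macrophage-like cells held 56.9% and 57.9% of all Slc40a1 UMIs in Het and 71.8%, 74.0% and 77.0% in KO. These cells made up 4.79% and 5.14% of kept Het cells and 9.96% to 11.03% of kept KO cells (exact permutation test, two-sided, p = 0.1, the smallest that 2 against 3 libraries allow). In such sums more cells of a type and more RNA per cell cannot be told apart.

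Within the interstitial macrophage-like cells the values were closer. There Slc40a1 stood at 312 and 370 CPM in Het and at 445, 460 and 483 CPM in KO, a log2 difference of 0.44. The groups again did not overlap, but the difference ranged from 0.29 with doublets kept to 0.56 without Het2, and was 0.32 without Het1. None of the 10 marker genes of this type passed the test within it, and the red-cell genes carried along in these cells summed to 38858 and 29822 CPM in Het against 11234, 17806 and 17920 CPM in KO. With each cell thinned to 2000 UMIs, 38.6% and 40.9% of interstitial cells in Het had a Slc40a1 UMI, and 51.8%, 49.8% and 54.1% in KO. Before thinning the shares were 60.8%, 68.4%, 73.0%, 72.0% and 76.8%, at median depths of 7838.5, 6464, 8492, 8480 and 9810.5 UMIs. The thinned share in AT2-like cells was 0% to 1.19%, with unthinned medians of 17212 to 31449 UMIs. Red-cell genes summed to 9244 and 5820 CPM in the AT2-like cells of Het1 and Het2, below the interstitial sums. The AT2-like share is therefore no measure of free RNA in interstitial cells, whose part was not tested.

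Both macrophage types were also summed. In these macrophage-like sums Slc40a1 stood at 37.9 and 43.7 CPM in Het and at 171, 142 and 146 CPM in KO, a log2 difference of 1.90. The interstitial markers in the same sums totalled 4943 and 4358 CPM against 18345, 11615 and 11627 CPM, and the alveolar markers 3352 and 3304 CPM against 1387, 1313 and 1376 CPM. Neutrophil-like cells, the next highest type, stood at 135 and 157 CPM in Het and at 151, 170 and 167 CPM in KO, with overlapping groups. Their part of all Slc40a1 UMIs went from 17.2% and 19.3% to 5.79%, 7.49% and 6.47%. In monocyte-like cells the values were 22.8 and 17.7 CPM in Het and 113, 38.4 and 29.9 CPM in KO. The high library there was KO1, in which interstitial markers summed to 13080 CPM against 5385 to 6812 CPM in the others. The log2 difference in this type was 1.37, but 0.75 without KO1 and 0.09 with doublets kept. No Slc40a1 UMI was found in B cell-like or in T, NK or innate lymphoid-like cells of any library.

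**Figure D2:**
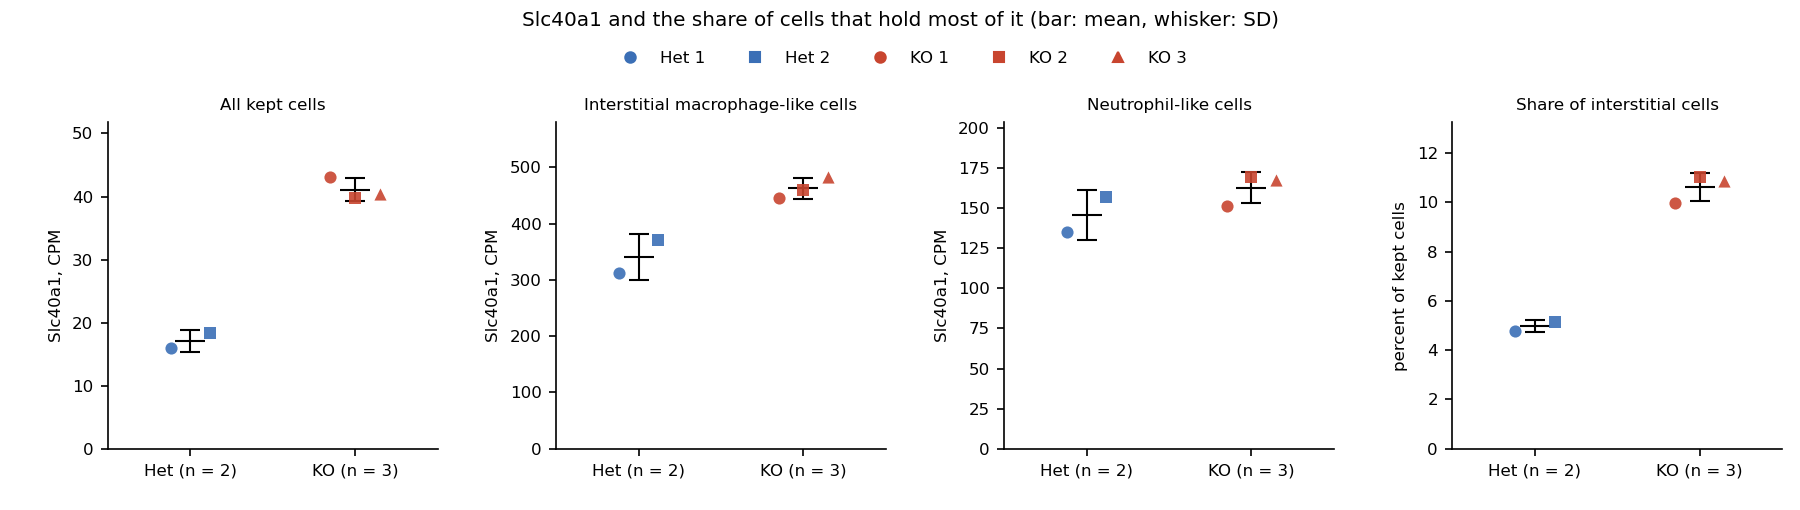
Slc40a1 level (CPM) in all kept cells, interstitial macrophage-like cells and neutrophil-like cells, and the share of kept cells that are interstitial macrophage-like (%), by genotype; points are libraries, horizontal bars means and whiskers SDs. The KO libraries lie above both Het libraries in all kept cells, in the interstitial cells and in their share, and overlap with them in neutrophil-like cells.

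The ferritin heavy chain fell in alveolar macrophage-like cells and over all cells. Over all kept cells Fth1 stood at 6036 and 7433 CPM in Het and at 4306, 4412 and 4237 CPM in KO, a fall of log2 -0.64 (SE 0.10, edgeR adjusted p = 0.0319). In this whole-library comparison 3 of the 9 tested members passed (Fth1, Tfrc and Trf), against 4.21% of all genes tested, and 7 of 9 had groups that did not overlap, against 46.6% of all genes. The median log2 difference of the 9 was 0.31, against 0.01 over all genes. None of the 3 passed with sex as a covariate or without Het1, Het2, KO2 or KO3, and Tfrc did not pass without KO1.

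In alveolar macrophage-like cells alone Fth1 stood at 14874 and 19972 CPM in Het and at 10707, 9590 and 8819 CPM in KO, a fall of log2 -0.84 (SE 0.12, edgeR adjusted p = 0.00234). Ftl1 stood at 6622 and 8451 CPM in Het and at 6068, 5131 and 4384 CPM in KO, a fall of log2 -0.54 (SE 0.14, edgeR adjusted p = 0.0372). Both genes were highest in Het2 and neither had overlapping groups. The Fth1 call was lost without Het2 (edgeR adjusted p = 0.0617). The Ftl1 call was lost without Het2, KO2 or KO3 and with DESeq2, and Ftl1 reads can be shared with its near-identical copy Ftl1-ps1. Of the 8 members tested in this type 3 passed, against 8.53% of all genes, and 11 of the 12 alveolar macrophage markers also fell within it.

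The alveolar type was made up of 3 clusters, which differed in their Fth1 level. The level was highest in the one of 322 cells led by Atp6v0d2, Spp1, Inhba and Gpnmb, at 34346 and 47511 CPM in Het and 32244 and 27442 CPM in KO2 and KO3. This cluster held 133 and 153 cells in Het but 0, 12 and 24 cells in KO, too few for a test. In the cluster led by Acaa1b, Plet1 and Lpl, Fth1 stood at 8866 and 9592 CPM in Het and at 10496, 8139 and 7532 CPM in KO, and the groups overlapped (log2 -0.08, edgeR adjusted p = 0.749). In the cluster led by Gpr171, Mmp19 and S100a4 it stood at 11746 and 12704 CPM in Het and at 11028, 9507 and 8330 CPM in KO (log2 -0.35, edgeR adjusted p = 0.0999). With edgeR, Tfrc alone of 8 tested members passed in the cluster led by Acaa1b (3.34% of all genes), and 0 of 8 in the one led by Gpr171 (5.3% of all genes), where 2 had an unadjusted p under 0.05, as had 1941 of all 10176 genes tested.

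In interstitial macrophage-like cells the ferritin values lay in the other direction. Fth1 stood at 6407 and 5690 CPM in Het and at 9523, 8181 and 7574 CPM in KO (log2 0.48, SE 0.11, edgeR adjusted p = 0.0799), and Ftl1 at 7172 and 7566 CPM and at 9729, 10280 and 8328 CPM (log2 0.36, edgeR adjusted p = 0.155). The Fth1 difference passed in 5 of 17 alternatives, among them DESeq2 and library size alone. The interstitial type was made up of 3 clusters. In the largest, led by Ccl7, Ccl12 and Ms4a7, Fth1 rose from 6212 and 5619 CPM to 9570, 8497 and 7724 CPM (log2 0.54, SE 0.11, edgeR adjusted p = 0.0156), the only member of 9 to pass there, against 1.28% of all genes. In the next, led by Crybb1, Cryba4 and Pf4, it stood at 8348 and 9029 CPM against 10776, 8633 and 10760 CPM (log2 0.21, edgeR adjusted p = 0.725). There 0 of 7 members passed with edgeR, against 1.12% of all genes, and 3 had an unadjusted p under 0.05, as had 316 of all 3033 genes tested. The smallest, led by Ccl2, Ccl7 and Cdkn2c, held 17 and 19 cells in Het and 9, 18 and 33 in KO, too few for a fit, with Fth1 at 5907 and 4415 CPM against 8174, 5527 and 6157 CPM and overlapping shares of kept cells. Over the whole interstitial type 0 of 9 members passed with edgeR (with DESeq2, Fth1 passed), against 1.18% of all genes, and 6 of 9 had an unadjusted p under 0.05, against 12.2% of all genes. AT2-like cells had a fall of Fth1 from 2193 and 2369 CPM to 1677, 1921 and 1881 CPM (log2 -0.32, SE 0.09, edgeR adjusted p = 0.0424). This call was lost in 7 of 16 alternatives, among them sex as a covariate and leaving out Het1, Het2, KO2 or KO3.

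**Figure D3:**
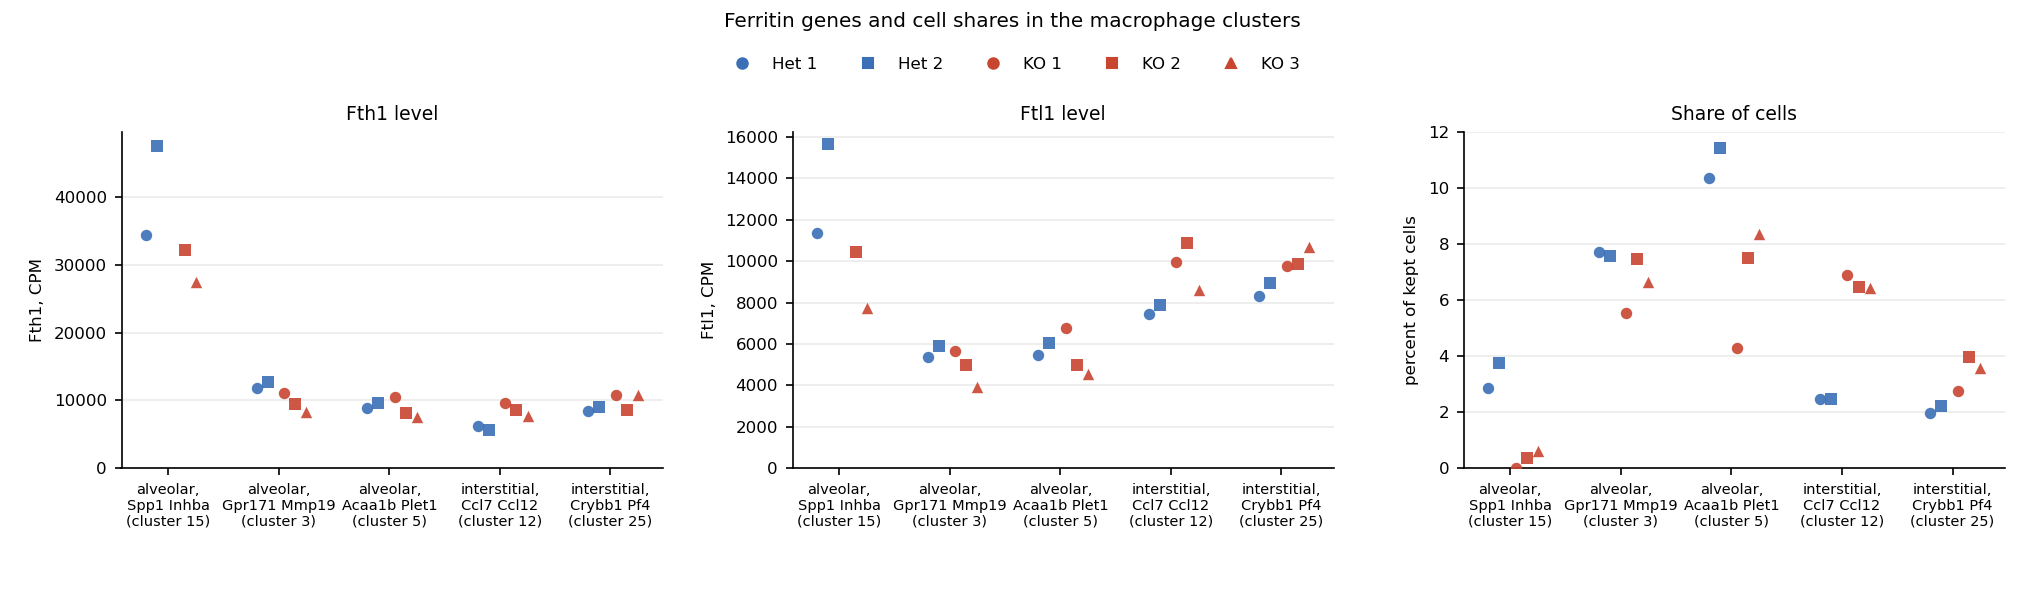
Fth1 and Ftl1 levels (CPM) and share of kept cells (%) in the 3 alveolar and the larger interstitial macrophage clusters, 1 point per library. The cluster led by Atp6v0d2 and Spp1 has the highest Fth1 levels and holds 0 to 24 KO cells per library, and the interstitial clusters led by Ccl7 and by Crybb1 take a higher share of cells in every KO library than in either Het library.

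Hmox1, Cd163 and Blvrb did not pass a test within interstitial macrophage-like cells. Hmox1, which opens the haem ring, stood at 492 and 677 CPM in Het and at 1197, 797 and 755 CPM in KO (log2 0.65, SE 0.19, edgeR adjusted p = 0.169). All KO libraries lay above both Het libraries, KO1 highest, and the difference was 0.41 without KO1. In alveolar macrophage-like cells Het2 stood alone, at 488 CPM, against 168 CPM in Het1 and 175, 156 and 157 CPM in KO. The log2 difference of -1.02 (edgeR adjusted p = 0.0696) became -0.05 without Het2 and -1.59 without Het1.

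Cd163, the scavenger receptor for haemoglobin bound to haptoglobin, had 95.1% to 98.1% of its UMIs in interstitial macrophage-like cells. It stood there at 95.6 and 200 CPM in Het and at 61.4, 58.8 and 131 CPM in KO (log2 -0.79, SE 0.34, edgeR adjusted p = 0.374), with overlapping groups. The difference ranged from -0.17 without Het2 to -1.30 over the alternatives, and was -1.23 without Het1. Blvrb stood in these cells at 574 and 564 CPM in Het and at 550, 578 and 596 CPM in KO (log2 0.01, SE 0.10, edgeR adjusted p = 0.978). The interstitial cluster led by Crybb1 had the higher Blvrb levels, 1021 and 1030 CPM in Het and 693, 809 and 942 CPM in KO (log2 -0.33, edgeR adjusted p = 0.493). The one led by Ccl7 and Ccl12 had 537 and 527 CPM against 557, 569 and 599 CPM. The cluster led by Crybb1 was of low depth, with median UMIs per cell at 0.191 of the library median, against 1.055 in the one led by Ccl7. Red-cell genes summed to 151923 and 82545 CPM in Het and 28006, 83953 and 91907 CPM in KO of the cluster led by Crybb1, lowest in KO1 as Blvrb was, and their part in its level was not tested. In alveolar macrophage-like cells it stood at 65.6 and 63.0 CPM in Het and at 58.7, 49.5 and 44.5 CPM in KO (log2 -0.36, SE 0.10, edgeR adjusted p = 0.0551), and this difference passed in 7 of 17 alternatives.

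Summed over both macrophage types, Blvrb nevertheless rose from 125 and 121 CPM to 245, 209 and 208 CPM (log2 0.85, SE 0.09, edgeR adjusted p = 2.65e-04). In the same sums Slc11a1 rose (log2 1.18, edgeR adjusted p = 4.02e-04), Slc11a2 rose (log2 0.96, edgeR adjusted p = 0.00767), Tfrc rose (log2 0.38, edgeR adjusted p = 0.0349) and Fth1 fell (log2 -0.82, edgeR adjusted p = 0.00176), so that 5 of 9 members passed, against 15.1% of all genes. The Tfrc call was lost in 8 of 17 alternatives, among them without Het1, Het2, KO2 or KO3, and both the Tfrc and the Slc11a2 call with sex as a covariate. Blvrb, Slc11a1 and Slc11a2 did not pass in either type alone. Slc11a2 stood at log2 -0.12 in alveolar and 0.74 in interstitial macrophage-like cells (edgeR adjusted p = 0.705 and 0.140). Slc11a1 stood at log2 -0.11 in alveolar macrophage-like cells (edgeR adjusted p = 0.709), and at 126 and 97.3 CPM against 157, 134 and 140 CPM in interstitial ones (log2 0.36, edgeR adjusted p = 0.260). The marker totals given above for the same sums moved with these values, and their part in the calls was not tested. Over all immune cells Fth1, Tfrc, Slc11a1, Slc11a2 and Blvrb passed, 5 of 9, against 8.26% of all genes. All 5 calls were lost without Het2, all but Slc11a1 without Het1, and Fth1 also without KO2. With sex as a covariate the Tfrc, Slc11a2 and Blvrb calls were lost.

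The transcript of the transferrin receptor, through which cells take up iron, was higher in KO in the epithelial sums and in AT2-like cells. Over all epithelial cells Tfrc rose from 45.1 and 41.2 CPM in Het to 76.1, 63.9 and 65.4 CPM in KO (log2 0.66, SE 0.11, edgeR adjusted p = 0.0141). In AT2-like cells it rose from 66.4 and 55.2 CPM to 93.8, 82.9 and 77.5 CPM (log2 0.47, SE 0.12, edgeR adjusted p = 0.0295). Of the 2 clusters that make up this type, it rose in the one led by Egfl6 and Tinag, from 50.3 and 47.0 CPM to 91.3, 82.6 and 70.3 CPM (log2 0.74, SE 0.13, edgeR adjusted p = 0.00439). In the one led by Lyz1 and Retnla it stood at 102 and 92.4 CPM against 124, 102 and 133 CPM (edgeR adjusted p = 0.261). KO libraries lay above both Het libraries in each of these comparisons. Secretory markers in the epithelial sums totalled 12867 and 13782 CPM in Het and 5422, 5809 and 3744 CPM in KO, and their part in the Tfrc and Trf values of these sums was not tested. In AT1-like, secretory-like and ciliated-like cells no member passed as higher in KO. The epithelial call was lost without Het1, without Het2, with mixed cells left out and with sex as a covariate. The AT2-like call was lost in 6 of 16 alternatives, among them mixed cells left out, sex as a covariate and leaving out Het1, Het2 or KO2. The AT2-like value was 0.00 at its lowest.

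Tfrc also rose in alveolar macrophage-like cells, from 11.5 and 13.2 CPM to 17.3, 15.7 and 19.7 CPM (log2 0.52, SE 0.13, edgeR adjusted p = 0.0363). This call was lost in 8 of 17 alternatives, among them DESeq2, sex as a covariate and leaving out Het1, Het2, KO2 or KO3. In interstitial macrophage-like cells the groups overlapped (log2 -0.34, edgeR adjusted p = 0.564). Slc11a2, which carries iron out of the endosome, rose in AT2-like cells from 26.7 and 27.9 CPM to 58.4, 38.1 and 37.5 CPM, highest in KO1 (log2 0.69, SE 0.19, edgeR adjusted p = 0.0373). This call was lost in 5 of 16 alternatives, among them sex as a covariate and leaving out Het1 or Het2. In AT1-like cells Slc11a2 stood at 40.6 and 42.5 CPM against 54.9, 56.6 and 74.5 CPM (log2 0.61, SE 0.17, edgeR adjusted p = 0.148). Counted over the 8 members tested in AT2-like cells, 4 passed (Trf, Fth1, Tfrc and Slc11a2), against 17.1% of all genes, and 6 of the 8 AT2 markers fell within the type.

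Transferrin showed the largest difference of the 9 tested genes, and it was seen in 3 epithelial types. In AT2-like cells, which line the alveoli and make surfactant, Trf stood at 423 and 262 CPM in Het and at 72.0, 65.0 and 74.3 CPM in KO, a fall of log2 -2.28 (SE 0.18, edgeR adjusted p = 1.41e-04). The 3 KO libraries lay close together and far below both Het libraries. Both AT2-like clusters had the fall: from 703 and 548 CPM to 123, 145 and 203 CPM in the one led by Lyz1 and Retnla (log2 -1.96, SE 0.16, edgeR adjusted p = 4.75e-08) and from 299 and 199 CPM to 66.3, 58.6 and 56.5 CPM in the one led by Egfl6 and Tinag (log2 -2.05, SE 0.16, edgeR adjusted p = 8.54e-05). Of 7 members tested in each, Trf, Fth1 and Ftl1 passed in the first cluster (6.56% of all genes) and Trf and Tfrc in the second (17.6% of all genes). The first cluster made up 218 and 128 of the AT2-like cells in Het and 50, 43 and 92 in KO. With cells thinned to 2000 UMIs, 45.8% and 36.6% of AT2-like cells in Het had a Trf UMI against 9.52%, 8.56% and 14.7% in KO (unthinned 83.6%, 75.8%, 44.8%, 55.0% and 57.9%), and AT1-like cells had 1.64% to 4.00%. Median depths were 17212 to 31449 UMIs in AT2-like and 7619.5 to 12085 UMIs in AT1-like cells.

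Markers of other cell types were also counted in AT2-like cells, and the macrophage, secretory and red-cell sums were lower in every KO library than in either Het library, while the AT1 sums (4361 and 5316 CPM against 4726, 4087 and 4385 CPM) overlapped. The 9 shared macrophage markers summed to 515 and 496 CPM in Het and to 451, 366 and 383 CPM in KO of AT2-like cells, beside 2581 and 2498 CPM against 1854, 1756 and 1971 CPM in alveolar macrophage-like cells. The 12 alveolar macrophage markers summed to 2244 and 1826 CPM against 647, 593 and 791 CPM, with Cidec, Chil3 and Ear1 at 0 in a library. The 7 secretory markers summed to 143 and 273 CPM against 85.3, 55.9 and 89.0 CPM, beside 44481 and 60350 CPM in the secretory-like cells of Het1 and Het2. Red-cell genes summed to 9244 and 5820 CPM against 1967, 2414 and 2391 CPM. The part of free RNA in the Trf values was not tested. With cells that carried markers of another lineage left out, the Trf call in AT2-like cells was kept, as it was in all 16 alternatives (log2 -2.62 to -1.90).

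In secretory-like cells, the club-type cells of the airway, Trf fell from 1696 and 1870 CPM to 771, 805 and 864 CPM (log2 -1.13, SE 0.10, edgeR adjusted p = 3.16e-04), and it was the only one of 7 tested members to pass, against 0.571% of all genes. This call was lost with doublets kept (log2 -0.42), with finer clusters, and with mixed cells left out, up to an edgeR adjusted p of 0.877. In ciliated-like cells Trf fell from 1169 and 1253 CPM to 733, 767 and 732 CPM (log2 -0.70, SE 0.11, edgeR adjusted p = 0.0246), again alone of 7 tested members and against 0.175% of all genes, and this call was lost without Het1, Het2 or KO2. Ciliated-like cells had no fit with mixed cells left out, so the call was not checked in that way. The secretory markers summed to 44481 and 60350 CPM in Het and to 23183, 25561 and 26610 CPM in KO of secretory-like cells, and to 32233 and 39095 CPM against 13144, 17837 and 19059 CPM in ciliated-like cells. In AT1-like cells Trf lay between 4.77 and 26.2 CPM with overlapping groups (edgeR adjusted p = 0.953), and 0 of 7 members passed with edgeR, against 0.415% of all genes, and 0 of the 4 to which DESeq2 gave an adjusted p, while 2 had an unadjusted p under 0.05 (11.7% of all genes). Over all epithelial cells Trf fell from 687 and 561 CPM to 266, 257 and 190 CPM (log2 -1.39, SE 0.15, edgeR adjusted p = 0.00505), and with Tfrc it made up 2 of 8 tested members that passed, against 6.62% of all genes. Secretory-like cells were 6.26% and 4.48% of kept cells in Het and 3.08%, 2.60% and 1.16% in KO. Their median UMIs per cell stood at 0.206 of the library median, and those of ciliated-like cells at 3.754.

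**Figure D4:**
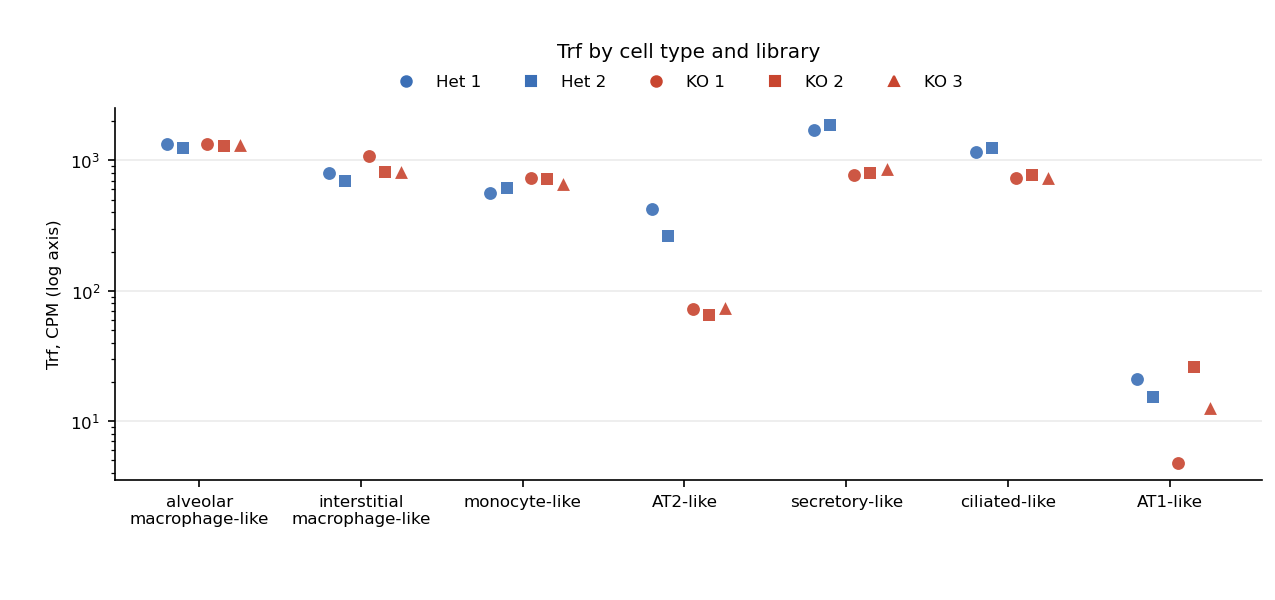
Trf level (CPM, log axis) by cell type, 1 point per library. The KO libraries lie below both Het libraries in AT2-like, secretory-like and ciliated-like cells and overlap with them in alveolar macrophage-like cells.

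In macrophages Trf passed no test. In alveolar macrophage-like cells Trf stood at 1329 and 1244 CPM in Het and at 1346, 1282 and 1320 CPM in KO (log2 0.03, SE 0.08, edgeR adjusted p = 0.863). In interstitial macrophage-like cells it stood at 803 and 699 CPM against 1075, 819 and 810 CPM (log2 0.26, SE 0.13, edgeR adjusted p = 0.487). The genotype difference was tested between macrophage-like and epithelial sums with library as a block. That of Trf was higher in macrophages by log2 1.29 (SE 0.15, edgeR adjusted p = 1.92e-04), in all 9 alternatives. Blvrb differed by 0.68 (adjusted p = 0.00385), Fth1 by -0.56 (adjusted p = 0.0213) and Slc11a2 by 0.52 (adjusted p = 0.0479), so that 4 of 9 members passed, against 7.83% of all genes. The Blvrb term was lost without Het2, and those of Fth1 and Slc11a2 without Het1, Het2 or KO2. The difference for Tfrc was -0.30 (adjusted p = 0.271), so its change was not shown to differ between the 2 groups of cells. The marker totals of the macrophage-like sums given above apply to this comparison too. In the endothelial and mesenchymal lineages 0 of 7 and 0 of 8 members passed with edgeR and with DESeq2, against 6.39% and 0.0291% of all genes, while 3 and 2 had an unadjusted p under 0.05 (22.5% and 11.4% of all genes). In monocyte-like cells 0 of 8 passed with edgeR, against 0.0212% of all genes, and 0 of the 7 to which DESeq2 gave an adjusted p, and 4 had an unadjusted p under 0.05 (10.8% of all genes).

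**Figure D5:**
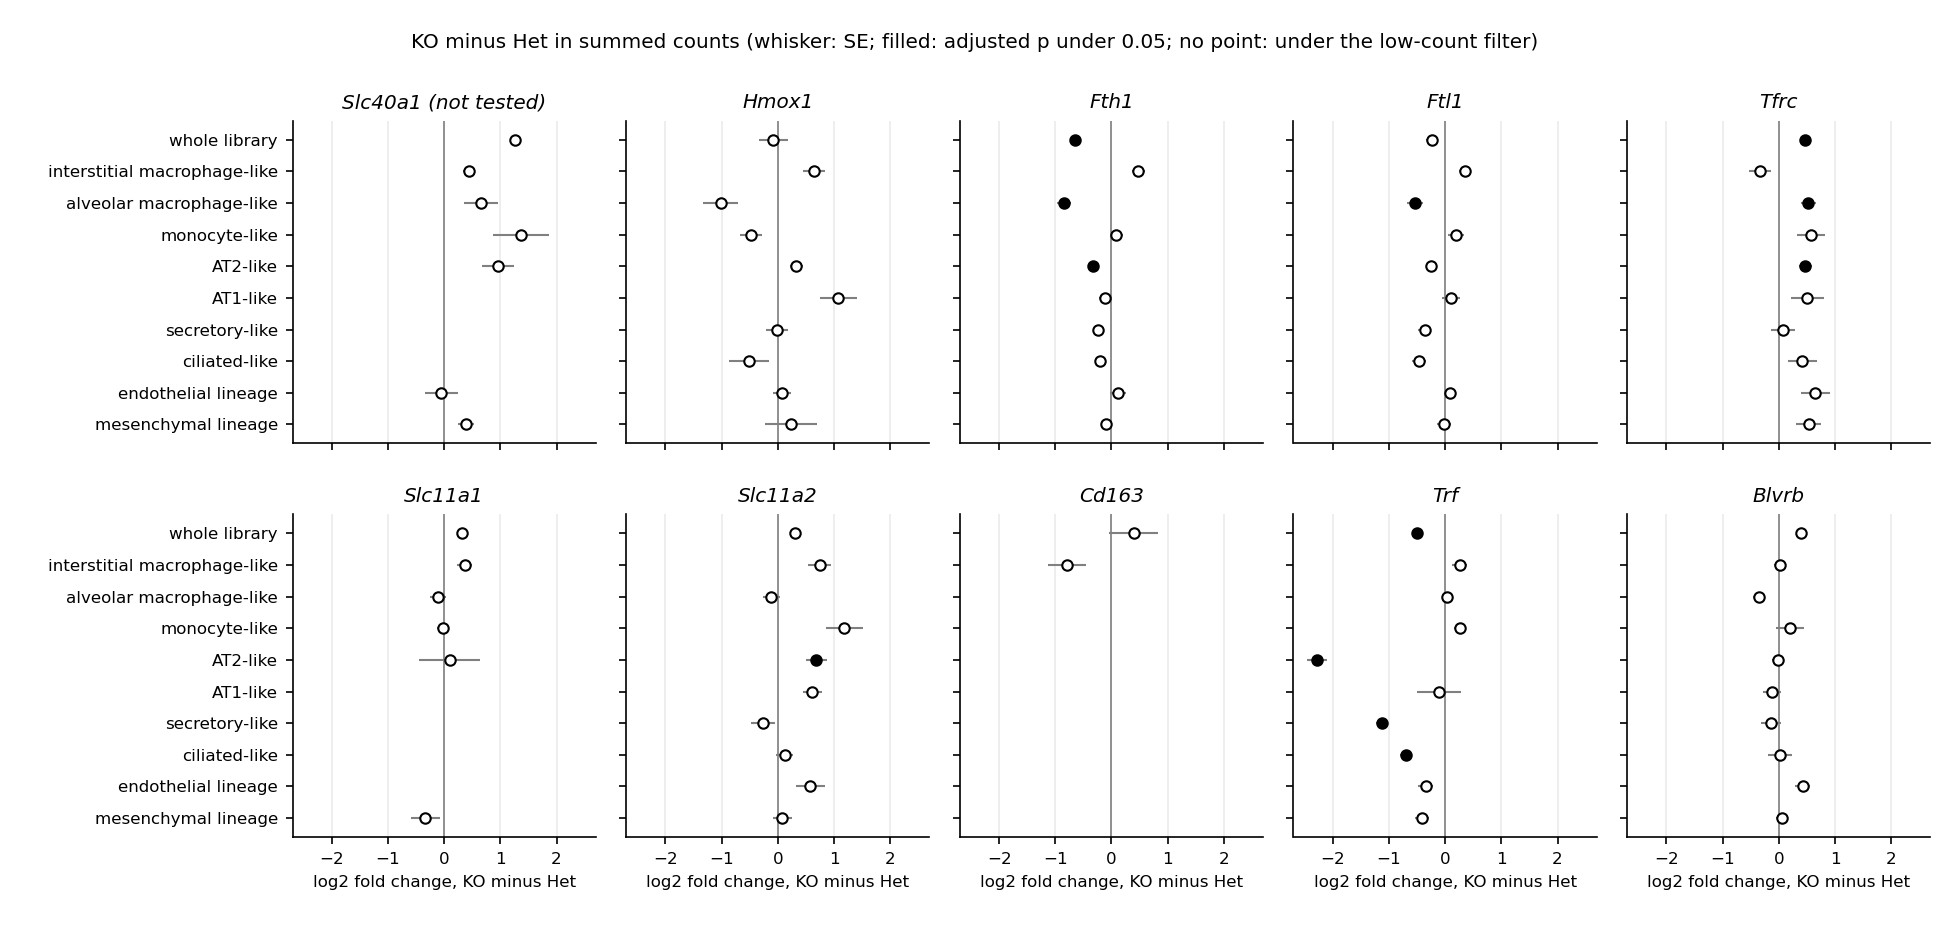
KO minus Het log2 difference of each gene in each set of summed counts, with the SE as whisker; filled points passed an edgeR adjusted p of 0.05, and Slc40a1 was not tested. Trf lies at -2.28 in AT2-like and 0.03 in alveolar macrophage-like cells, and Fth1 at -0.84 in alveolar and 0.48 in interstitial macrophage-like cells.

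Around these 10 genes, 56 further genes of iron and haem handling were read from the same fits. Over all kept cells 0 of 53 tested were higher and 6 lower in KO, against 4.21% of all genes called, with a median log2 difference of -0.08 against 0.01 over all genes. The largest falls were in Ltf (lactoferrin), Hp (haptoglobin, which binds free haemoglobin) and Lcn2 (which binds iron-laden siderophores). Ltf fell from 51.2 and 51.1 CPM to 21.1, 30.3 and 30.1 CPM (log2 -0.91, edgeR adjusted p = 0.0400). Ltf and Lcn2 are among the leading genes of a neutrophil-like cluster, and neutrophil-like cells made up 6.43% and 7.70% of kept cells in Het and 4.79%, 6.12% and 5.05% in KO. Lcn2 stood at 147 and 159 CPM in Het and at 88.7, 84.4 and 84.1 CPM in KO (log2 -0.84, edgeR adjusted p = 0.0123). In AT2-like cells 2 of 46 were higher and 9 lower, against 17.1% of all genes called, with a median of -0.16 against 0.00 over all genes. Lcn2 fell there from 211 and 238 CPM to 55.2, 62.4 and 64.8 CPM (log2 -1.88, edgeR adjusted p = 8.78e-05), Hp fell from 48.6 and 53.4 CPM to 14.1, 10.8 and 15.3 CPM (log2 -1.92, edgeR adjusted p = 1.36e-04), and Alas2, the red cell form of the synthesis enzyme, fell by 2.04 on the log2 scale beside the red-cell genes given above. The iron reductase Cybrd1 rose (log2 0.48), as did the Lcn2 receptor Slc22a17 (log2 0.68). Both rose in the AT2-like cluster led by Egfl6 and Tinag (log2 0.77 and 0.82). In the one led by Lyz1 and Retnla they stood at log2 0.04 and -0.01 (edgeR adjusted p = 0.940 and 0.997).

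In secretory-like cells 0 of 38 were higher and 3 lower (0.571% of all genes called), and in ciliated-like cells 0 of 38 were higher and 2 lower (0.175%). Cp, the ferroxidase that works with ferroportin, fell in both: from 79.1 and 87.6 CPM to 6.88, 29.8 and 31.8 CPM in secretory-like cells (log2 -1.85, edgeR adjusted p = 0.0195), and from 86.1 and 114 CPM to 9.89, 35.0 and 11.2 CPM in ciliated-like cells (log2 -2.22, edgeR adjusted p = 0.0239). Hp fell in secretory-like cells (log2 -0.67) and Lcn2 in ciliated-like cells (log2 -2.14). Alas2 fell in secretory-like cells (log2 -2.17, edgeR adjusted p = 0.00244), where red-cell genes summed to 26387 and 20596 CPM in Het and 9579, 6538 and 4214 CPM in KO. The pattern in alveolar macrophage-like cells was 1 of 40 higher (the stress regulator Nfe2l2, log2 0.37) and 7 lower, against 8.53% of all genes called. The largest falls were in Alas1, the first enzyme of haem synthesis outside red cells (log2 -0.69), the iron-sensing Fbxl5 (-0.64) and Flvcr2 (-0.55), with a median of -0.00 over the list and 0.01 over all genes. In interstitial macrophage-like cells (1.18% of all genes called) 0 of 41 were higher and 1 was lower, Alas2 (log2 -1.51), beside the red-cell genes given for these cells. In the macrophage-like sums 8 of 43 were higher and 7 lower, against 15.1% of all genes called, and the shift of interstitial and alveolar markers given for these sums applies here too. The largest rises there were Spic (log2 2.44), a factor of red pulp macrophages, Steap4 (1.61) and Cp (1.58), and the largest falls Flvcr2 (-0.96), Fbxl5 (-0.95) and Lcn2 (-0.89). Monocyte-like cells (0.0212% of all genes called) had 0 of 39 higher and 1 lower, Ltf (log2 -3.86), and neutrophil markers in these cells summed to 6617 and 6977 CPM against 3616, 5186 and 4609 CPM.

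The genes whose levels ran most alike were sought over 45 sums (9 types in 5 libraries) among 8594 genes, as a description, since the sums share libraries and depth. For Slc40a1 these were Ddx60, Ninj1 and Il10rb (Pearson r 0.875, 0.875 and 0.870), for Hmox1 the lysosomal protease Ctsb, F13a1 and Ftl1 (0.953, 0.930 and 0.925) and for Cd163 Snx6, Folr2 and Crybb1 (0.957, 0.949 and 0.944). Fth1 ran with Arl11, Pik3ap1 and Rab32 (0.961, 0.955 and 0.955) and Ftl1 with Ctsa, Hexa and Ftl1-ps1 (0.972, 0.961 and 0.961). Slc11a1 ran with Fyb, Prkcb and Aoah (0.962, 0.961 and 0.960), Blvrb with Selenop, Osbpl11 and Washc4 (0.934, 0.923 and 0.915) and Slc11a2 with Prmt2, Zmym4 and Ptov1 (0.931, 0.923 and 0.920). Trf ran with Klhl5, Entpd7 and Pla2g4a (0.875, 0.870 and 0.853).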

How the data were processed

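Per the file headers the deposited counts came from Cell Ranger 4.0.0, as UMIs of a gene in a barcode without scaling. The submitters' processing notes name mm10, and the annotation used is not given in the sources used here. Of 32285 gene IDs, 32158 matched GENCODE M21 (GRCm38), from which coordinates and UTRs were taken.

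A barcode was kept from 500 detected genes upwards if mitochondrial UMIs made up no more than 15%. Doublets were scored against simulated ones and removed at 0.8% per 1000 cells. Cells were clustered with scanpy 1.11.5 (2000 variable genes without the iron, haemoglobin, mitochondrial and sex-linked genes, 30 principal components, 15 neighbours, Leiden resolution 1) and named by marker lists. An "X-like" name is a rebuilt one and may differ from the authors' own.

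Cells are not replicates, so counts were summed per library and type and compared with edgeR 4.0.16 (quasi-likelihood test, TMM scaling, filterByExpr, two-sided, Benjamini-Hochberg over all genes tested, adjusted p under 0.05) for types with 20 or more cells per library throughout. The 2 Het and 3 KO embryos are separate animals. Named were the 10 genes, iron genes past the threshold (the 3 largest in each direction where more passed) and, per gene, the 3 with the highest Pearson correlation of log2(CPM + 1) among genes with a mean of at least 10 CPM. Those of Tfrc are not reported here. Members, gene lists and the marker lists were chosen with earlier results of these data known. Steps were tested on simulated data. Alternatives were DESeq2 1.42.0, library size alone, other filters on genes and barcodes (1000 genes and 10% mitochondrial UMIs as limits, or all barcodes), doublets kept, Leiden resolutions 0.5 and 2, iron genes among the clustering genes, mixed cells (those with 3 or more detected markers from a second lineage) left out, sex as a covariate, the replicate number as a block and each library left out. Intervals are not given for sums. Counting error is larger where a sum holds few UMIs. Examples are Ltf in monocyte-like cells (4, 3 and 3 UMIs in KO1, KO2 and KO3) and Cp in ciliated-like cells (10 and 16 UMIs in KO1 and KO3).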

Additional observations from a re-analysis of the deposited data

Results flagged for a closer look

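For 4 of the 9 tested genes the KO minus Het difference itself differed between macrophage-like and epithelial sums (edgeR, genotype by cell type term, library as a block). The difference of log2 fold changes was 1.29 for Trf, 0.679 for Blvrb, -0.559 for Fth1 and 0.52 for Slc11a2. For Trf the KO minus Het difference was -1.39 in the epithelial and -0.08 in the macrophage-like sums, for Blvrb 0.14 and 0.85, for Fth1 -0.29 and -0.82 and for Slc11a2 0.41 and 0.96. The Trf term passed in all 9 alternatives run for it and the Blvrb term in 8, all but leaving out Het2. The Fth1 and Slc11a2 terms passed in 4 of 9 each and were lost without Het1, Het2 or KO2. The interstitial share of the macrophage-like sums differed between the genotypes, as the marker totals in the report show, and its part in the Blvrb, Fth1 and Slc11a2 terms was not tested. Secretory markers in the epithelial sums totalled 12867 and 13782 CPM in Het and 5422, 5809 and 3744 CPM in KO, and their part in the Trf term was not tested.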

How the results depend on the processing

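No called value changed direction in any alternative. The depth of single types limits what could be seen: erythroid-like cells and, under the stricter barcode filter, AT2-like cells were too few for a fit. Het has 2 libraries, so leaving out 1 assumes that the remaining one varies like the others. Of the 9 tested genes 3 passed over all kept cells, against 6 with DESeq2, 1 with all barcodes, 0 with mixed cells left out, 0 with sex as a covariate and 0 with the replicate block, and from 0 to 4 with each library left out in turn. The 5 of the immune lineage became 2 with the sex covariate and from 0 to 5 with a library left out. The 2 of the epithelial lineage became 4 without a low-count filter, 1 with mixed cells left out, 1 with the sex covariate and 1 to 2 with a library left out. The 0 of the endothelial lineage became 1 without the filter and 1 with mixed cells left out. The 5 of the macrophage-like sums became 3 with the sex covariate and 4 to 6 with a library left out, and the 4 of AT2-like cells became 1 with it and from 1 to 4 with a library left out. The 5 calls over the single macrophage, monocyte and other epithelial types became 13 without the filter, 9 under the stricter barcode filter, 9 at Leiden resolution 2, 8 with iron genes among the clustering genes, 11 with the replicate block and from 1 to 7 with a library left out. The 4 genotype by cell type terms became 2 with DESeq2, 2 with mixed cells left out and from 1 to 4 with a library left out. The monocyte-like share, -0.1241 percentage points different in KO, became 0.6867 at Leiden resolution 2 and 0.3849 with doublets kept. The cause was not tested for any of these. Calls that passed in every alternative were Trf in the epithelial lineage (17 alternatives) and in AT2-like cells (16), Fth1, Slc11a1 and Blvrb in the macrophage-like sums (17 each) and the Trf term (9). Only replicate numbers 1 and 2 are shared by both genotypes. The deviations of same-numbered libraries from their group means had r = -0.117 for number 1 and -0.107 for number 2 over 17756 genes. With 2 Het libraries the Het deviations mirror each other, so these values cannot show whether the numbers pair the embryos. The block gave 5 calls in the immune lineage, 2 in the epithelial lineage, 4 in the macrophage-like sums and 4 in AT2-like cells.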

Other observations

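In an unnamed epithelial cluster of low depth led by Sfta3-ps, Bex4 and Lars2, Fth1 stood at 13957 CPM in Het2 and at 2458 CPM in Het1, 1963 CPM in KO1, 2264 CPM in KO2 and 2481 CPM in KO3, a single library apart from the other 4, chosen after its value was seen.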
